A study of Homo sapiens with 18 samples.

Results

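HeyA8, a human ovarian cancer cell line, was transfected with the short RNA sG5C and compared with the same cells transfected with the short RNA sNT8, the reference in the deposited tables. The comparison was taken by the cell line and treatment fields of the labels and holds 6 of the 18 libraries of the study, 3 with sG5C and 3 with sNT8, lettered A to C. Both groups were wild type by the genotype field, received 10 nM of short RNA with the lipid reagent RNAiMax, and gave total RNA after 48 h. The titles of the sG5C libraries read Mxy, while the treatment field reads sG5C, and the field was followed. The study as a whole used 2 cell lines, HeyA8 and the prostate cancer line PC3, and 3 short RNAs, sNT8, sG5C and sCAG. The labels do not say whether replicates were separate cultures, so p-values measure the spread between these libraries, which may be technical. A cell line is a single model, and neither untreated nor mock-transfected cells were analysed here.

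The title of the series speaks of short RNAs that induce DISE, death induced by survival gene elimination. In this form of cell death, short RNAs are loaded into the RNA-induced silencing complex, where an Argonaute protein holds the guide strand. The seed, a short stretch near the 5′ end of the guide, pairs with matching sites in the 3′ untranslated regions (3′ UTRs) of mRNAs, which lowers the amounts of those mRNAs. Seeds rich in G are known to be toxic when their target sites are frequent in genes that cells need to survive.

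Between 32942081 and 39189838 reads per library fell within genes, and each library detected 32223 to 33133 genes. The sG5C libraries, at 32942081 to 34931546 reads, lay below the sNT8 libraries, at 36489632 to 39189838. MALAT1, a nuclear long noncoding RNA, took 1.09 to 1.24% of the reads with sNT8 and 2.09 to 2.20% with sG5C, and genes annotated as sense intronic took 0.0666 to 0.0736% and 0.0873 to 0.108%. The share of protein-coding genes was 92.7 to 93.1% with sNT8 and 91.5 to 91.7% with sG5C. The part that these shifts have in the results below was not tested. Levels below are CPM, reads scaled to a common library size after TMM scaling, which assumes that most genes do not change. They carry no correction for transcript length, so they are compared between libraries and not between genes. In bulk RNA, fewer cells of one kind and less RNA per cell cannot be told apart.

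sG5C changed the level of a large share of all genes. Of 22406 genes with enough reads to test, 11945 passed an adjusted p of 0.05 in edgeR's quasi-likelihood F test, which is 53.3% of those tested. These were 5905 genes that rose (26.4%) and 6040 that fell (27.0%). Any list of genes is therefore read below against a background in which many genes rose and many fell. Over all genes about as many rose as fell, but falls were more common among protein-coding genes, which make up most lists. Among the 13520 protein-coding genes tested, 4141 rose (30.6%) and 4831 fell (35.7%). A list with shares near these is not set apart by its counts. Over all 22406 genes, 1457 fell and 1386 rose by more than 2-fold. Falls outnumbered rises among the better-measured protein-coding genes. Of the 10434 protein-coding genes with at least 5 CPM in the higher group, 4239 fell and 3444 rose. Among these, 699 fell and 263 rose by more than 2-fold, 105 fell and 27 rose by more than 4-fold, and 18 fell and 3 rose by more than 8-fold. With libraries scaled to their totals alone, 7462 genes rose and 4832 fell, and the median log2 change of all genes moved from 0.04 to 0.14, so small changes near 0 depend on the scaling.

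The cells carried some but not all ovarian carcinoma markers. PAX8, a transcription factor of Müllerian epithelia, stood at 379.8, 366 and 353 CPM with sNT8 and 151, 142 and 137 CPM with sG5C. The keratin KRT8 stood at 765, 706 and 648 CPM with sNT8 and 259.6, 270.0 and 232 CPM with sG5C, and its partner KRT18 at 289, 291 and 274 CPM with sNT8 and 136, 137 and 141 CPM with sG5C. All 3 were lower in every sG5C library than in every sNT8 library. MUC16, which encodes CA-125, had no read in any library, and EPCAM and KRT19 had means below 1 CPM in both groups. Of the 11 ovarian markers 9 could be tested, and 6 fell and none rose. Their summed level was 1446 to 1625 CPM with sNT8 and 640 to 700.0 CPM with sG5C. The 10 leukocyte markers summed to 0.893 to 1.78 CPM with sNT8 and 0.776 to 1.15 CPM with sG5C, and none passed 1 CPM in all 6 libraries. The 9 fibroblast markers summed to 73.8 to 79.1 CPM with sNT8 and 30.7 to 34.8 CPM with sG5C, nearly all of it from FAP and COL1A1, while COL1A2, COL3A1, DCN and LUM had group means below 0.1 CPM. The 8 endothelial markers summed to 494 to 508 CPM with sNT8 and 447 to 454 CPM with sG5C, most of it TIE1. CDH5 had means of 72.6 CPM with sNT8 and 58.3 CPM with sG5C. PECAM1 had means of 3.61 and 0.775 CPM, ERG of 1.81 and 1.64 CPM and KDR of 1.47 and 0.910 CPM. VWF, TEK and CLDN5 had means below 1 CPM in both groups.

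RNA classes differed in the shares that rose and fell, which were 26.4% and 27.0% for all genes tested. Of 448 sense intronic genes tested, 142 rose (31.7%) and 21 fell (4.69%), with a median log2 change of 0.40. Among 208 small nuclear RNA genes 46 rose (22.1%) and 7 fell (3.37%). Among 268 genes of the class misc_RNA 57 rose (21.3%) and 12 fell (4.48%). Of 1165 long intergenic noncoding RNA genes 206 rose (17.7%) and 249 fell (21.4%). In the small nuclear RNA, misc_RNA and long intergenic classes both shares lay below those of all genes. No strand setting of the counting is known here, which leaves antisense and overlapping genes uncertain, as well as genes with near-identical copies.

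The sequence that a reading of the name sG5C would target was counted in the mRNAs. The labels give no sequence of the short RNAs, so this is a reading of the name. Read as 5 G followed by C, the seed would be GGGGGC and its matching site the reverse complement, GCCCCC, which cannot overlap itself. It was searched on the mRNA strand in the longest 3′ UTR that GENCODE 29 annotates for each of 13398 protein-coding genes tested, and GGGGGC was searched on the same strand as a separate motif. At least 1 GCCCCC stood in 30.7% of these 3′ UTRs and 3 or more in 6.00%. A match is a description of the letters in that region and no proof of binding. The 8 sites below are shown because their genes had 3 or more matches, stood at 100 CPM or more, and fell more than 2-fold with sG5C in both cell lines. These were the 8 with the largest falls in HeyA8 among 36 genes that met those limits, chosen after their values were seen. Each is the first match after the stop codon, on the mRNA strand, 5′ to 3′, in hg38 coordinates with 9 bases on each side, and capitals mark the match.

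ADGRG1, chr16:57663636-57663659: ctgcctgtgGCCCCCgagcccggc
FSCN1, chr7:5605565-5605588: gggaggcaaGCCCCCttgcctttc
EHD2, chr19:47741869-47741892: cctggcaggGCCCCCagcccctcc
EPN1, chr19:55695603-55695626: gtggctgggGCCCCCacccattcc
EIF5A, chr17:7311854-7311877: cctgcagagGCCCCCtccccgagc
ARHGDIA, chr17:81868579-81868602, minus strand: cctttctgtGCCCCCcaggttcta
NTSR1, chr20:62760307-62760330: tgggtccttGCCCCCgacagacag
PAK4, chr19:39178600-39178623: aaccaaagaGCCCCCcgggtcacc

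These genes cover several cell functions. ADGRG1 encodes an adhesion G protein-coupled receptor, has 4 matches and changed by a log2 of -3.23 in HeyA8 and -1.91 in PC3. FSCN1 encodes fascin, which bundles actin filaments, and has 6 matches. It changed by -3.0 in HeyA8 and -3.05 in PC3. EHD2 encodes an ATPase of caveolae and EPN1 an adaptor of clathrin-coated pits. Both have 7 matches, in 3′ UTRs of 1702 bases for EHD2 and 14177 bases for EPN1. EHD2 changed by -2.92 in HeyA8 and -2.22 in PC3, and EPN1 by -2.69 and -2.87. EIF5A, with 5 matches, encodes a translation factor that helps ribosomes past stalling sequences and changed by -2.68 and -3.05. ARHGDIA encodes an inhibitor that keeps small GTPases in the cytosol and has 3 matches. It changed by -2.66 in HeyA8 and -3.73 in PC3. NTSR1, the neurotensin receptor gene, has 6 matches and changed by -2.59 and -2.53, and the kinase gene PAK4, with 5, by -2.43 and -2.65. All of these falls with sG5C were part of the choice of the genes and are given without a test. With sCAG in HeyA8, against the same sNT8 libraries, ADGRG1 changed by -2.07 and NTSR1 by -1.70. The other changes with sCAG were 0.18 for FSCN1, 0.49 for EHD2, 0.22 for EPN1, -0.18 for EIF5A, -0.16 for ARHGDIA and -0.13 for PAK4.

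Across all 13398 genes, those with more matches had lower log2 changes with sG5C. With no match (9286 genes) the median log2 change was 0.03, with 1 match (2338 genes) -0.09, with 2 matches (970 genes) -0.20 and with 3 or more (804 genes) -0.34. The share of genes that fell went from 31.3% with no match through 41.5% and 49.3% to 56.1% with 3 or more. The share that rose went the other way, from 33.4% to 18.8%. Falls of more than 2-fold were found in 5.61% of genes with no match and 20.5% of genes with 3 or more. In PC3, with other libraries of both short RNAs, the medians by number of matches were 0.06, -0.12, -0.17 and -0.40. In HeyA8 cells given sCAG, set against the same sNT8 libraries, they were -0.08, -0.01, 0.07 and 0.09.

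Base composition and length moved with the number of matches. The median GC content of the 3′ UTR was 39.3% with no match and 55.7% with 3 or more. Within 5 groups of equal size by GC content, an alternative added after seeing the data, the median log2 change of genes with 2 or more matches lay below that of genes with none in each group. In the group richest in GC the medians were 0.03 without and -0.36 with 2 or more matches (1108 and 900 genes). In the group poorest in GC they were 0.01 and -0.27, but only 15 genes there had 2 or more matches, and in the other 3 groups genes with 2 or more had medians of -0.14 to -0.18. Within 3 groups by length of the 3′ UTR the medians with no match were 0.00, 0.04 and 0.06, and with 2 or more -0.28, -0.39 and -0.16.

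Other arrangements of the same letters were counted in the same way. Genes with 3 or more CGCCCC (176 genes) had a median of -0.37, close to the -0.34 of GCCCCC. With 3 or more the medians were -0.17 for CCGCCC, -0.15 for CCCGCC, -0.20 for CCCCGC and -0.24 for CCCCCG, and -0.13 for the reverse complement GGGGGC. Within the 3 groups by length, from short to long, genes with 2 or more CCCCCG had medians of 0.14 (57 genes), -0.39 and -0.14. Those with 2 or more CCCCGC had medians of -0.18, -0.29 and -0.16, beside -0.28, -0.39 and -0.16 for GCCCCC. Genes with 3 or more GCCCCCA, the hexamer followed by A, had a median of -0.44, and 61.9% of these 134 genes fell. Matches to GCCCCC in the coding region also went with lower values, with a median of 0.02 for genes with none and -0.26 for 1564 genes with 3 or more. GCCCCC and CGCCCC share 5 letters and can overlap in 1 site, and genes with one motif often hold the others.

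**Figure D1:**
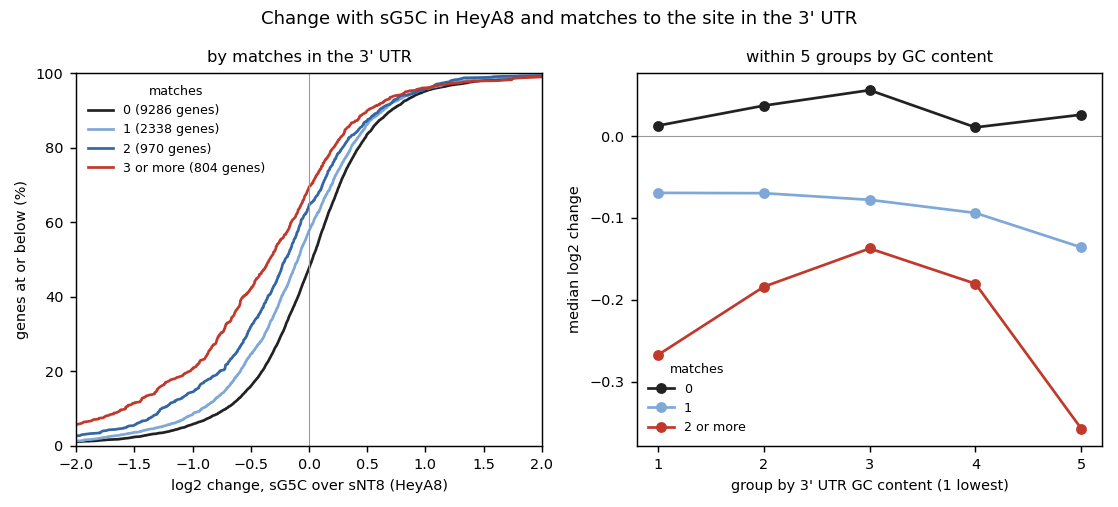
Left, cumulative share of genes (percent) by log2 change of sG5C over sNT8 in HeyA8, for genes with 0, 1, 2 and 3 or more GCCCCC in the 3′ UTR. Right, median log2 change within 5 groups of equal size by GC content of the 3′ UTR, for genes with no match, 1 match and 2 or more; the curves shift left with more matches, from a median of 0.03 to -0.34, and the points for 2 or more matches lie below those for none in every group.

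Matches were also counted among the genes with the largest changes. Of the 15 protein-coding genes with the largest falls 5 had GCCCCC in the 3′ UTR, and of the 15 with the largest rises 1 had it, APLN with 5 copies. At least 1 match was found in 48.9% of the genes that fell more than 2-fold, in 51.3% of the 191 that fell more than 4-fold and in 30.7% of all genes. The 15 lowest and 15 highest are those with the largest log2 change among called protein-coding genes of at least 5 CPM whose groups did not overlap. Groups that do not overlap were common, with all sG5C libraries above in 29.5% and below in 29.5% of all genes tested.

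TXNIP, among the genes with the largest falls, encodes an arrestin-like protein that binds thioredoxin and restrains glucose uptake. It stood at 313, 247 and 346 CPM with sNT8 and 21.8, 24.6 and 23.5 CPM with sG5C (ENSG00000265972, chromosome 1, 145992435 to 145996600), so the sG5C libraries lay far below the sNT8 libraries. Its log2 change was -3.70 ± 0.16 (SE), a 13.0-fold fall (edgeR adjusted p = 9.55e-06). PTPRU, a receptor tyrosine phosphatase gene, stood at 75.0, 72.5 and 78.5 CPM with sNT8 and 7.30, 6.76 and 6.27 CPM with sG5C and fell 11.1-fold (log2 -3.48 ± 0.07, SE, adjusted p = 2.57e-24). SIGLEC15, a sialic acid-binding lectin gene, stood at 223, 201 and 222 CPM with sNT8 and 20.6, 21.3 and 20.0 CPM with sG5C, a 10.4-fold fall. For PTPRU and SIGLEC15 the 3 sG5C values lay within a narrow band far below the lowest sNT8 value.

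SNAI2 encodes Slug, a transcription factor that represses epithelial genes. It stood at 44.6, 44 and 40.1 CPM with sNT8 and 3.19, 5.02 and 4.91 CPM with sG5C (ENSG00000019549, chromosome 8, 48917604 to 48921740). Every sG5C value was lower than every sNT8 value, and the fall was 9.81-fold (log2 -3.29 ± 0.11, SE, adjusted p = 1.93e-16). FZD8, a WNT receptor gene, stood at 129.6, 129.6 and 128 CPM with sNT8 and 14.0, 16.5 and 14.3 CPM with sG5C, and EDNRA, the endothelin A receptor gene, at 35.9, 36.6 and 36.6 CPM with sNT8 and 3.99, 4.19 and 3.66 CPM with sG5C. Both fell without overlap of the groups, FZD8 by 8.66-fold and EDNRA by 9.22-fold. SEMA3A, a secreted guidance cue gene, fell 8.81-fold, SPOCK1, a matrix proteoglycan gene, 13.0-fold, the phosphatase gene PTPN22 15.0-fold and INSC, which encodes a spindle orientation adaptor, 13.7-fold. C6orf141 held 168 to 206 reads with sNT8 and 2 or 3 with sG5C, so its log2 change of -6.15 rests on very few reads.

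SYT11, among the genes with the largest rises, encodes a synaptotagmin, a membrane trafficking protein. It stood at 3.73, 3.57 and 3.68 CPM with sNT8 and 32.3, 38.4 and 40.3 CPM with sG5C (ENSG00000132718, chromosome 1, 155859509 to 155885199), and the 3 sG5C libraries lay well above. The rise was 10.1-fold (log2 3.34 ± 0.10, SE, adjusted p = 2.83e-21). MERTK, a receptor tyrosine kinase gene of dead-cell uptake, stood at 0.622, 0.934 and 0.568 CPM with sNT8 and 5.83, 6.61 and 5.49 CPM with sG5C and rose 8.43-fold (log2 3.08 ± 0.19, SE, adjusted p = 9.67e-14). Its groups did not overlap. APLN, the gene of the peptide hormone apelin, stood at 3.36, 3.42 and 2.65 CPM with sNT8 and 27.2, 25.9 and 22.3 CPM with sG5C and rose 7.99-fold. PTX3, which encodes a secreted pattern recognition protein, stood at 10.4, 10.6 and 12.5 CPM with sNT8 and 67.8, 86.5 and 113 CPM with sG5C and rose 7.97-fold, again without overlap. DCP2, the gene of the mRNA decapping enzyme, stood at 65.8, 67.5 and 75.7 CPM with sNT8 and 414, 389.7 and 381 CPM with sG5C and rose 5.67-fold. KIF5C, a kinesin heavy chain gene, rose 7.41-fold, the cytokine gene IL11 6.65-fold, and MED12L, which encodes a Mediator kinase module subunit, 9.31-fold.

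The same genes had different values in the other comparisons, which are given side by side since the sCAG comparison shares the sNT8 libraries. With sG5C in PC3, 11 of the 15 lowest genes could be tested, of which 9 fell and 1 rose, and 13 of the 15 highest rose and none fell. Against these counts, 57.8% of all genes tested in PC3 were called, 30% as lower and 27.8% as higher. In PC3 SIGLEC15 changed by a log2 of -2.64, SNAI2 by -1.25 and TXNIP by -0.48, while SYT11 changed by 5.27 and DCP2 by 2.01. PTPRU, which fell in HeyA8, was at 0.42 in PC3, and MERTK at 0.11. With sCAG in HeyA8, 8 of the 15 lowest genes fell and 4 rose, and of the 15 highest 3 rose and 7 fell. In that comparison 59.7% of all genes were called, 30.9% as lower and 28.8% as higher. TXNIP was at -0.05 there, SNAI2 at 1.48, SYT11 at -0.39 and APLN at -1.66.

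**Figure D2:**
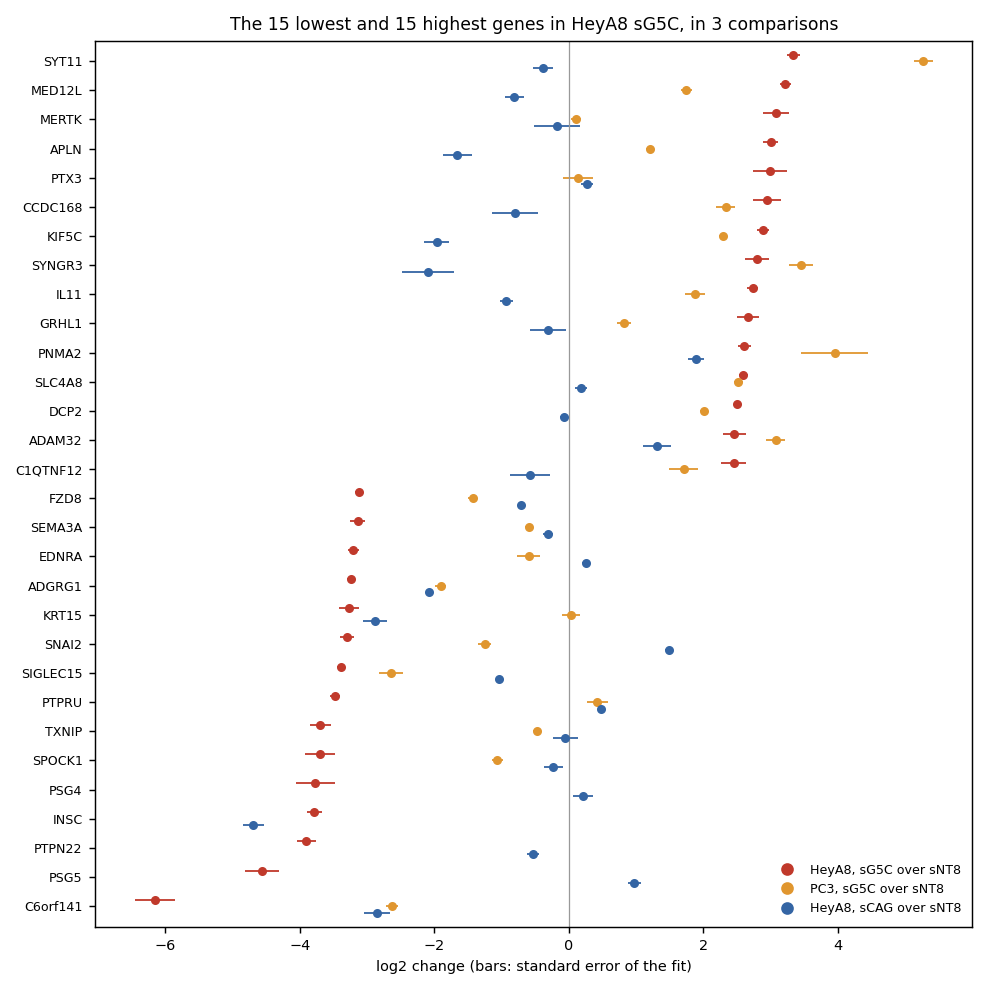
Log2 change with its standard error (horizontal axis) of the 15 lowest and 15 highest protein-coding genes of HeyA8 sG5C against sNT8, with the same genes in PC3 sG5C against sNT8 and HeyA8 sCAG against sNT8. SYT11 is high in both lines with sG5C, at 3.34 and 5.27, whereas TXNIP is far lower in HeyA8, at -3.70, than in PC3, at -0.48.

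Genes of the extracellular matrix mostly fell. Of 37 matrix genes tested, 21 fell and 8 rose, and their median log2 change was -0.30 against 0.04 for all genes. FN1 encodes fibronectin, a major matrix glycoprotein, and stood at 10606, 9343 and 9675 CPM with sNT8 and 1360.1, 1447 and 1315 CPM with sG5C (ENSG00000115414, chromosome 2, 215360440 to 215436172). Its sG5C values were all far below its sNT8 values, and it fell 7.19-fold (log2 -2.85 ± 0.05, SE, adjusted p = 1.26e-24). TNC, the tenascin C gene, stood at 2120.1, 2132 and 2205 CPM with sNT8 and 402, 419.7 and 430.2 CPM with sG5C and fell 5.16-fold. COL1A1, a type I collagen chain gene, fell 5.77-fold to 4.19 CPM. All 7 laminin genes on the list were tested and 6 fell and none rose. LAMA3 fell by 2.44-fold. The 13 collagen genes tested split into 6 that fell and 4 that rose. COL6A2, a type VI collagen chain gene, rose by 0.18 on the log2 scale, with 308 ± 8.67 CPM with sNT8 and 349 ± 6.36 CPM with sG5C (mean ± SD, n = 3 each). HSPG2, which encodes the basement membrane proteoglycan perlecan, fell 2.12-fold. In PC3 19 of 35 matrix genes fell and 13 rose, and FN1 rose there, with a log2 change of 1.06.

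Integrins are receptors for these proteins, each built of an alpha and a beta subunit. Of the 9 alpha subunit genes tested 5 fell and 2 rose, and of the 7 beta subunit genes 2 fell and 2 rose. ITGA5, whose product pairs with beta 1 to bind fibronectin, stood at 468, 455 and 438 CPM with sNT8 and 119, 113 and 116 CPM with sG5C, ITGA3, of a laminin receptor, at 1807, 1765 and 1805 CPM with sNT8 and 663, 681 and 676 CPM with sG5C, and ITGA2, of a collagen receptor, at 270.2, 250.5 and 244 CPM with sNT8 and 92.1, 89.3 and 87.6 CPM with sG5C. In all 3 the groups were apart, and the log2 changes were -1.97 ± 0.05, -1.41 ± 0.04 and -1.51 ± 0.05 (SE). ITGB1, whose product pairs with many alpha subunits, did not pass the test, at a log2 of 0.11, and ITGA6, of another laminin receptor, fell 1.85-fold. In PC3 9 of 16 integrin genes rose and 5 fell. The difference between the lines was called for 12 of 16 as lower in HeyA8 and for none as higher, against 19.0% and 14.0% of all genes. With libraries scaled to totals these were 10 and 0 of 17, against 12.0% and 24.4%.

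Matrix proteases and their partners changed in both directions. MMP14, which encodes a membrane-bound metalloprotease, fell 1.58-fold and ADAMTS1, which encodes a secreted one, 2.01-fold. TIMP2, a metalloprotease inhibitor gene, stood at 252 ± 12.7 CPM with sNT8 and 92.4 ± 6.15 CPM with sG5C (SD, n = 3 each) and fell 2.72-fold. In the plasminogen system PLAU, the urokinase gene, rose 2.91-fold and its receptor gene PLAUR 1.73-fold.

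Most factors of the mesenchymal state fell along with some epithelial ones. Of 7 transcription factor genes tested 5 fell and none rose, led by SNAI2 and followed among the named genes by TWIST2, which fell 2.54-fold. VIM, the vimentin gene, stood at 3625 ± 138 CPM with sNT8 and 2710.1 ± 92.7 CPM with sG5C (SD, n = 3 each), a log2 change of -0.42 ± 0.05 (SE). Of 10 epithelial marker genes 4 fell, KRT8 and KRT18 among them, and 2 rose, OCLN, a tight junction gene, by 2.25-fold. In PC3 8 of 19 genes of both kinds rose and 3 fell. Among genes of TGF-beta and YAP signalling 10 of 29 rose and 12 fell, and the counts were 12 and 10 with libraries scaled to totals. The ligand gene BMP2 fell 8.58-fold and the receptor gene TGFBR2 2.21-fold. The YAP target genes CTGF and CYR61 rose, CTGF by 3.33-fold, at 523 ± 65.3 CPM with sNT8 and 1743 ± 132 CPM with sG5C (mean ± SD, n = 3 each), while the target AXL fell 3.07-fold.

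**Figure D3:**
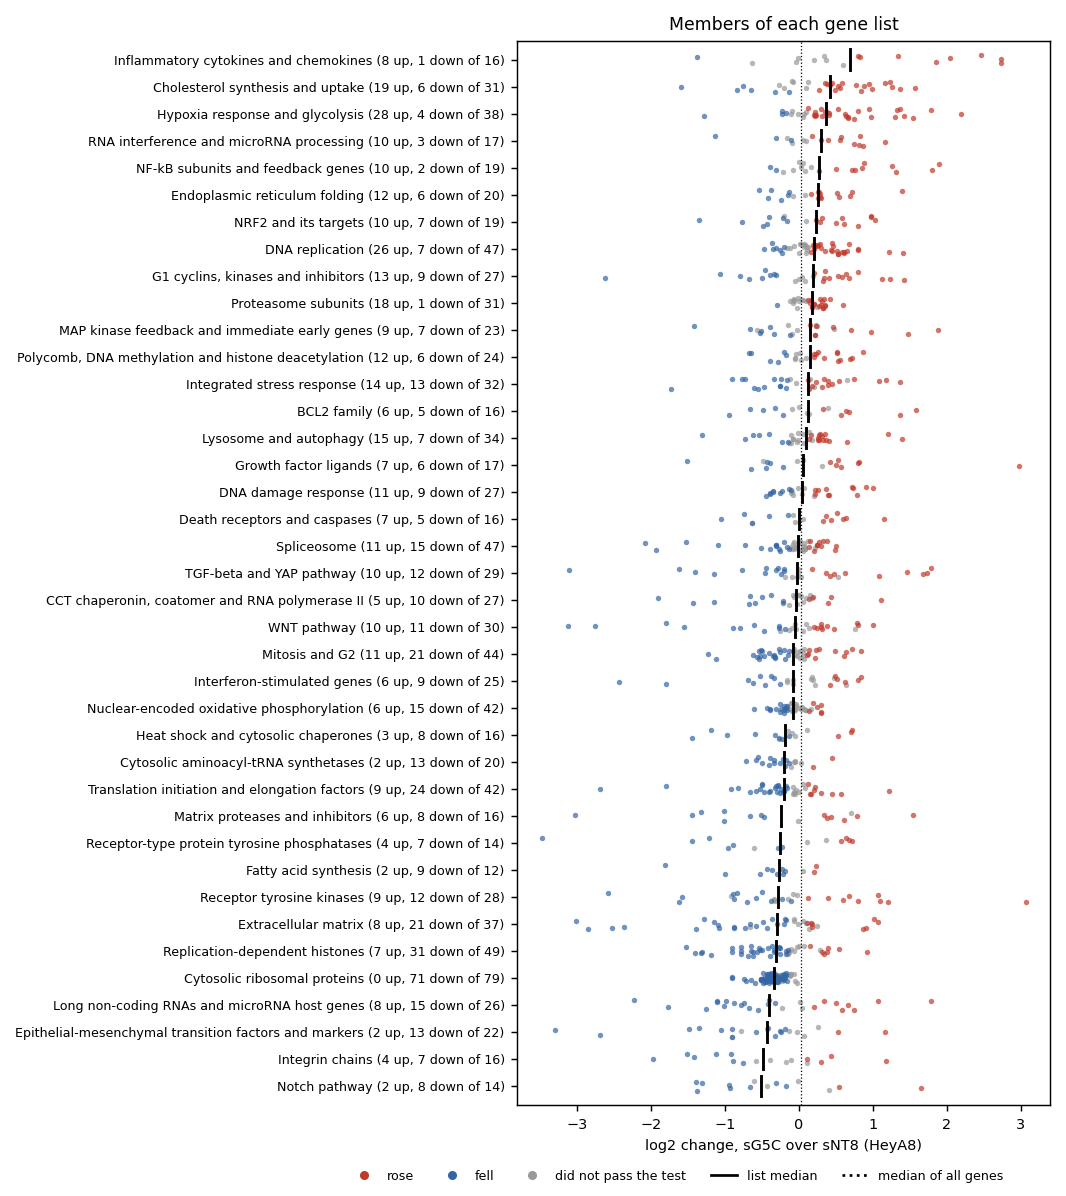
Log2 change of sG5C over sNT8 in HeyA8 (horizontal axis) for the tested members of most gene lists with 12 or more tested genes. Each point is 1 gene (red rose, blue fell, grey did not pass the test). The median of each list is drawn as a bar and the median of all genes as a dotted line. Ribosomal protein genes form a narrow band below 0 with a median of -0.33, cytokine and chemokine genes have the highest median, 0.70, and Notch pathway genes the lowest, -0.52.

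Genes of protein synthesis fell by small amounts with a few large exceptions. Of 79 ribosomal protein genes 71 fell while none rose, the median log2 change was -0.33, and 58 fell with libraries scaled to totals. Large and small subunits moved alike in size, with medians of -0.33 and -0.33. Many of these genes have near-identical pseudogene copies, so single values are uncertain. Of 42 translation factor genes 24 fell and 9 rose. EIF5A stood at 504, 523 and 485 CPM with sNT8 and 73.6, 86.5 and 75.2 CPM with sG5C (ENSG00000132507, chromosome 17, 7306999 to 7312463), with all sG5C libraries far below, and fell 6.43-fold (log2 -2.68 ± 0.06, SE, adjusted p = 5.26e-23). Its copies EIF5AL1 and EIF5AP4 may share reads with it. EIF4EBP1, which encodes an inhibitor of the cap-binding factor, fell 3.46-fold, whereas EIF4EBP2, of the same family, rose 2.33-fold. EIF4G1, the scaffold of the cap-binding complex, stood at 1419.5 ± 41.7 CPM with sNT8 and 756 ± 40.5 CPM with sG5C (SD, n = 3 each) and fell 1.88-fold. Of 20 aminoacyl-tRNA synthetase genes 13 fell and 2 rose (median -0.20), and VARS fell by the most, with a log2 change of -0.71.

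Within large complexes single subunits stood out. Of 47 spliceosome and splicing factor genes 15 fell and 11 rose (median -0.01), against 12 and 22 with libraries scaled to totals. SF3A1 stood at 195, 184 and 169.8 CPM with sNT8 and 42.2, 44.6 and 42.8 CPM with sG5C and fell 4.23-fold, and SF3A2, of the same U2 particle subcomplex, fell 3.80-fold. Their coding regions hold 8 and 11 copies of GCCCCC and their 3′ UTRs 1 and 1, which was looked up after their values were seen. Of 13398 genes 1564 held 3 or more copies in the coding region. MED12L, which rose, holds 5 there, and POLR2K, which fell, holds 0. Whether the copies have a part in these changes was not tested. Among 12 RNA polymerase II subunit genes POLR2E fell 3.72-fold and POLR2K 2.69-fold, and POLR2I rose 2.16-fold. Of 7 coatomer genes, which coat vesicles between the Golgi and the endoplasmic reticulum, 6 fell and 0 rose (median -0.59). Of 8 genes of the CCT chaperonin 2 rose and none fell (median 0.00).

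Genes of the RNA interference machinery that short RNAs use moved unevenly. All 4 Argonaute genes rose. AGO2, which encodes the slicing Argonaute, stood at 313, 297 and 323 CPM with sNT8 and 731, 671 and 687 CPM with sG5C (ENSG00000123908, chromosome 8, 140520156 to 140635619), with every sG5C library above every sNT8 library, and rose 2.24-fold (log2 1.16 ± 0.05, SE, adjusted p = 7.06e-18). DICER1, which cuts precursor hairpins, rose 1.78-fold, while DROSHA, which cuts them out of primary transcripts, fell 2.20-fold, at 96.7 ± 2.86 CPM with sNT8 and 44.1 ± 1.52 CPM with sG5C (mean ± SD, n = 3 each). TNRC6A, a scaffold that joins Argonaute to deadenylases, rose 1.83-fold. In PC3 the log2 changes were 0.01 for AGO2, 0.31 for DICER1 and -1.69 for DROSHA.

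Genes of cell death pathways changed in both directions. Of 16 death receptor pathway genes tested 7 rose and 5 fell. FAS, a death receptor gene, stood at 39.5, 35.9 and 36.3 CPM with sNT8 and 23.9, 25.4 and 22.6 CPM with sG5C, and TNFRSF10B, the TRAIL receptor 2 gene, at 227, 243 and 243 CPM with sNT8 and 317, 350.4 and 353 CPM with sG5C. FAS fell (log2 -0.64 ± 0.07, SE) and TNFRSF10B rose (log2 0.52 ± 0.05, SE), each without overlap between groups. TNFRSF1A, the TNF receptor gene, fell 2.08-fold. CASP8, the initiator caspase gene, was not called, at 52.5 ± 1.39 CPM with sNT8 and 54.6 ± 0.897 CPM with sG5C (SD, n = 3 each), and FASLG had too few reads to test. In the BCL2 family 3 of 8 BH3-only genes rose and none fell. PMAIP1, the NOXA gene, stood at 21.0, 26.9 and 22.5 CPM with sNT8 and 62.8, 75.1 and 73.4 CPM with sG5C and BCL2L11, the BIM gene, at 3.36, 4.08 and 4.41 CPM with sNT8 and 10.7, 9.98 and 9.96 CPM with sG5C, both without overlap between groups. They rose 3.00-fold and 2.58-fold. Of the pro-survival genes MCL1 rose and BCL2A1 fell, with log2 changes of 0.57 and -0.65. BIRC3, which encodes an inhibitor of apoptosis and is an NF-kB target, rose 3.47-fold, and XIAP changed by 0.26. CDKN1A, the p21 gene, was not called, with a log2 change of 0.04.

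**Figure D4:**
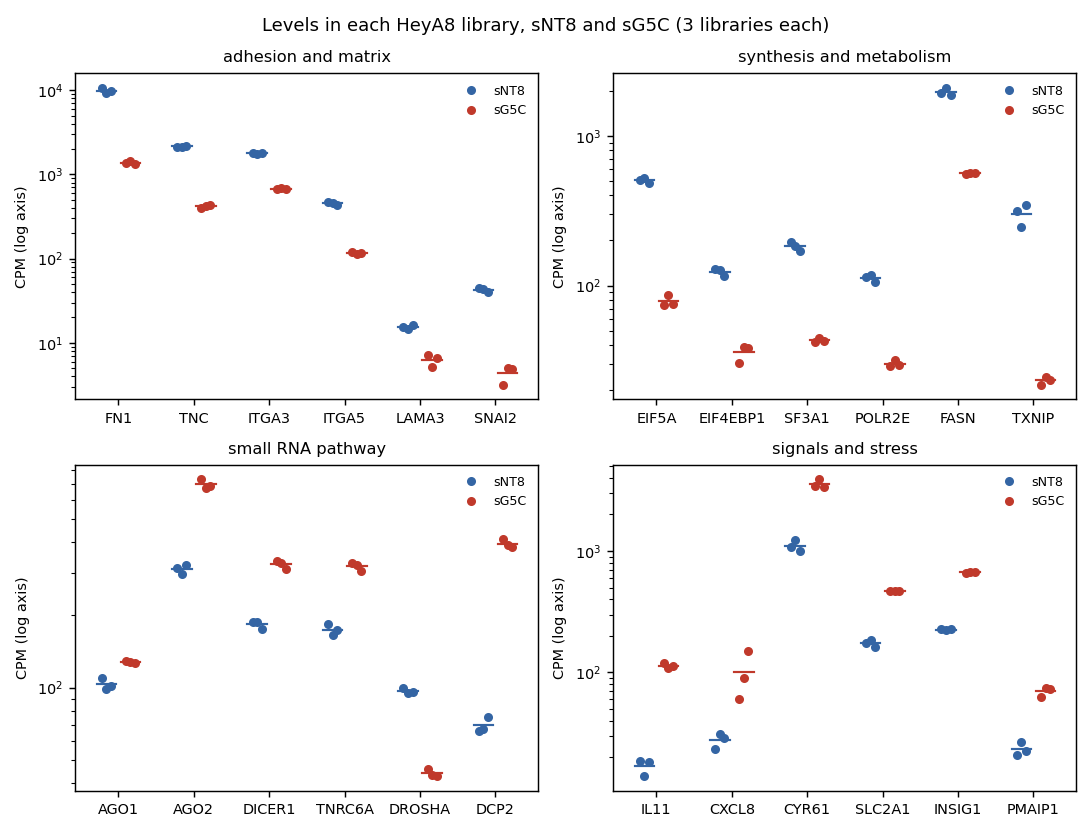
CPM (vertical log axis) in each of the 3 sNT8 and 3 sG5C libraries in 4 panels of genes, 1 point a library, with horizontal bars at the group means. The sG5C points of FN1, EIF5A and DROSHA lie below and those of AGO2, IL11 and INSIG1 above all sNT8 points, and the sG5C points of CXCL8 are the most spread on the log axis, 60.5 to 151 CPM.

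Many inflammatory genes rose, and interferon-stimulated genes moved in both directions. In the NF-kB pathway 10 of 19 genes rose and 2 fell (median 0.28). ICAM1, an adhesion molecule gene and NF-kB target, stood at 15.9, 15.3 and 19.0 CPM with sNT8 and 48.2, 57.9 and 81.8 CPM with sG5C and rose 3.74-fold, and the feedback inhibitors NFKBIA and TNFAIP3 rose 2.39-fold and 2.49-fold. Of 16 cytokine genes 8 rose and 1, CSF1, fell. IL11 stood at 18.7, 14.1 and 18.4 CPM with sNT8 and 119, 108 and 113 CPM with sG5C and the chemokine gene CXCL2 at 9.50, 14.9 and 10.4 CPM with sNT8 and 35.1, 48.3 and 60.3 CPM with sG5C. They rose 6.65-fold and 4.14-fold. CXCL8 stood at 23.3, 31.2 and 28.8 CPM with sNT8 and 60.5, 90.1 and 151 CPM with sG5C and was called, but no longer passed the test without sG5C replicate B or without any single sNT8 replicate (adjusted p = 0.0571 to 0.0790), and CXCL3 and IL1A were lost without sG5C replicate B, sNT8 replicate A or sNT8 replicate C (adjusted p = 0.0639 to 0.0749). Of 25 interferon-stimulated genes tested 9 fell and 6 rose (median -0.08), beside 35.7% and 30.6% of all protein-coding genes. These counts do not set the list apart. IFI44L fell 5.39-fold and SAMD9, an antiviral effector gene, 1.61-fold, while IRF1, a transcription factor gene, rose by 0.81. In PC3 24 of the 25 rose and none fell (median 1.08).

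DNA replication genes rose by small amounts, with 26 of 47 called as higher, 7 as lower and a median of 0.21. CDC6, which loads the replicative helicase, stood at 14.6, 15.3 and 12.2 CPM with sNT8 and 37, 38.1 and 36.9 CPM with sG5C and rose 2.66-fold, and MCM10, which helps activate it, rose 2.34-fold. All 6 listed genes of nucleotide supply rose, RRM1, a ribonucleotide reductase subunit gene, by 0.21 on the log2 scale. CCNE2, the cyclin E2 gene, stood at 4.09, 4.78 and 4.73 CPM with sNT8 and 11.3, 14.5 and 10.7 CPM with sG5C and CCND3, the cyclin D3 gene, rose 2.36-fold. CCNE2 rose without overlap, 2.68-fold, while MYC fell and CCND1 rose, with log2 changes of -0.68 and 0.40.

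Mitosis genes fell in 21 and rose in 11 of 44 cases (median -0.07). MKI67, a proliferation marker gene, stood at 812, 810.4 and 721 CPM with sNT8 and 535, 501 and 494 CPM with sG5C and fell 1.53-fold, and FOXM1, the transcription factor gene of G2 and mitosis, fell 2.16-fold. CDC25B, a phosphatase gene of mitotic entry, fell 2.33-fold and CDC25C, of the same family, rose 1.79-fold. With libraries scaled to totals 17 mitosis genes rose and 16 fell, so the balance of this list depends on the scaling. Histone genes tied to replication fell in 31 and rose in 7 of 49 cases (median -0.30). These genes have near-identical copies, and their mRNAs lack a poly(A) tail. In PC3 42 of the 47 replication genes fell and 1 rose (median -0.68). The difference between the lines was called as higher in HeyA8 for 41 of 47 replication genes, against 14.0% of all genes, and with libraries scaled to totals for 45, against 24.4%. Of 27 DNA repair genes 11 rose and 9 fell, with FANCA, of the Fanconi pathway, up 2.01-fold and LIG4, of end joining, up 1.88-fold, while in PC3 24 fell and 2 rose. With sCAG in HeyA8, against the same sNT8 libraries, 46 replication genes and all 44 mitosis genes fell, with medians of -2.08 and -5.38.

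Most cholesterol synthesis genes rose and most fatty acid synthesis genes fell. Of 20 cholesterol synthesis genes 14 rose and 1 fell. INSIG1, which retains the SREBP escort protein in the endoplasmic reticulum, stood at 227, 224 and 226 CPM with sNT8 and 659, 676 and 677 CPM with sG5C. It rose 2.97-fold, with the groups apart. Of 12 fatty acid synthesis genes 9 fell and 2 rose. FASN, the fatty acid synthase gene, stood at 1929.7, 2084 and 1872 CPM with sNT8 and 552, 564 and 568 CPM with sG5C and fell 3.50-fold (log2 -1.81 ± 0.05, SE, adjusted p = 5.93e-22). Its groups lay far apart, and its log2 change in PC3 was -2.24.

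Hypoxia and glycolysis genes rose in 28 and fell in 4 of 38 cases (median 0.37). The glucose transporter genes SLC2A1 and SLC2A3 rose 2.69-fold and 2.91-fold, ANGPTL4, a secreted inhibitor of lipoprotein lipase, rose 4.60-fold, and NDRG1 fell 2.43-fold. In PC3 34 of 37 rose, with a median of 1.29. MLXIP, which encodes MondoA, a glucose-sensing factor that drives TXNIP, fell 3.35-fold, at 236 ± 6.43 CPM with sNT8 and 70.3 ± 6.57 CPM with sG5C (mean ± SD, n = 3 each). Another arrestin-domain gene, ARRDC3, rose 2.47-fold. Of 42 genes of oxidative phosphorylation 15 fell and 6 rose (median -0.08), and 11 rose and 7 fell with libraries scaled to totals.

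Stress pathways showed no single direction. Of 32 integrated stress response genes 14 rose and 13 fell, and all 4 kinase genes that start the pathway fell, 2 of them with libraries scaled to totals. ATF4, its central factor, stood at 386 ± 6.24 CPM with sNT8 and 255 ± 21.1 CPM with sG5C (SD, n = 3 each) and fell with a log2 change of -0.60, while DDIT3, the CHOP gene, rose 2.12-fold, and PYCR1, a proline synthesis enzyme gene, fell 3.32-fold. Of 20 unfolded protein response genes 12 rose and 6 fell, and DNAJB9, a chaperone partner in the endoplasmic reticulum, rose 2.64-fold. Of 16 heat shock genes 8 fell and 3 rose. HSF1, the master factor, fell 2.28-fold and HSPB1, a small heat shock protein gene, 2.72-fold. Of 31 proteasome genes 18 rose and 1, PSMD2, fell, with a median of 0.18. Of 34 lysosome and autophagy genes 15 rose and 7 fell, SQSTM1, the autophagy receptor p62, by 0.65 upward and CTSL, the cathepsin L gene, with a log2 change of -1.31. Among NRF2 targets NQO1 and GCLM rose 1.98-fold and 1.97-fold, whereas AKR1C1 fell 2.56-fold.

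Receptors and signalling genes held some of the largest changes. Of 28 receptor tyrosine kinase genes 12 fell and 9 rose. ERBB2 stood at 71.1, 68.3 and 62.7 CPM with sNT8 and 23.8, 22.0 and 22.1 CPM with sG5C and fell 2.98-fold, and EGFR and MET changed by a log2 of -0.58 and -0.83. All 3 TAM receptors were called, MERTK as higher and AXL and TYRO3 as lower, TYRO3 not so with libraries scaled to totals. The ligand gene GAS6, whose product binds the TAM receptors, rose 1.76-fold and VEGFC fell 2.85-fold. Of 14 receptor tyrosine phosphatase genes 7 fell and 4 rose, against 5 and 5 with libraries scaled to totals, with PTPRU lowest. In the WNT pathway 11 of 30 genes fell and 10 rose, against 10 and 12 with libraries scaled to totals, and DVL1, which relays the signal from Frizzled receptors, fell 2.94-fold. Of 14 Notch genes 8 fell and 2 rose. RBPJ, the DNA-binding factor of the pathway, stood at 504, 460.3 and 485 CPM with sNT8 and 199, 197 and 191 CPM with sG5C and fell 2.47-fold, the ligand gene JAG1 fell 2.61-fold and the ligand gene JAG2 rose 3.15-fold. The immediate early gene EGR1 rose 3.69-fold. Of 9 Polycomb genes 6 rose and 1 fell, SUZ12, a core subunit of the complex that methylates histone H3, by 0.52 on the log2 scale.

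The pregnancy-specific glycoprotein genes, a placental gene family that some tumours express, all fell where they could be tested, in 8 of 8, with a median of -3.70. PSG5 held 185 to 219 reads with sNT8 and 3 to 12 with sG5C, and PSG4 129 to 238 and 6 to 21, so each rests on few reads, and their near-identical copies make single values uncertain. With sCAG, against the same sNT8 libraries, 7 of the 8 rose. Of 12 long noncoding genes that host small nucleolar RNAs 10 fell and 0 rose (median -0.93). SNHG8 stood at 37.7, 41.9 and 41.4 CPM with sNT8 and 7.90, 9.01 and 9.04 CPM with sG5C, SNHG3 fell 3.41-fold and GAS5 1.84-fold. SNHG8 fell 4.66-fold, with no overlap. MALAT1 and NEAT1, the architectural RNAs of the nucleus, rose 1.69-fold and 2.10-fold.

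Where the response differed from that of PC3 was tested as the difference between the log2 changes of both lines, over 12 libraries. Of 26233 genes 8667 differed (33%), 3677 with a higher value in HeyA8 (14.0%) and 4990 with a lower one (19.0%). With libraries scaled to totals the balance turned, to 6399 higher and 3137 lower, and the median difference of all genes moved from -0.02 to 0.20. The library names of the PC3 samples have differing prefixes, and the line and its library preparation cannot be told apart, although each change is taken within a line. In CPM scaled over these 12 libraries, FN1 stood at 10678 CPM with sNT8 and 1436 with sG5C in HeyA8, and at 69.4 and 148 in PC3, a difference of -3.98 (edgeR adjusted p = 9.13e-33). GBP1, an interferon-induced GTPase gene, fell from 7.30 to 3.51 CPM in HeyA8 and rose from 13.9 to 125 CPM in PC3, a difference of -4.23. The interferon-stimulated genes IFI44L and TRIM22 also differed downward, by -4.14 and -3.63. In the other direction E2F1, a transcription factor gene of S phase entry, stood at 8.72 and 10.8 CPM in HeyA8 and 50.6 and 11.2 CPM in PC3, a difference of 2.48, and MERTK differed by 2.89.

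sG5C and sCAG gave different profiles in HeyA8 when compared directly, without the sNT8 libraries. Of 22269 genes 14841 differed (66.6%), 7581 higher with sG5C (34%) and 7260 lower (32.6%). Among protein-coding genes of at least 5 CPM that also changed against sNT8, the largest difference upward with sG5C was that of FREM2, which encodes an extracellular matrix protein, with 31.2 CPM with sG5C and 0.0916 with sCAG and a log2 difference of 8.35. PBK, a mitotic kinase gene, had 57.3 CPM with sG5C and 0.193 with sCAG, a log2 difference of 8.18 (edgeR adjusted p = 3.40e-26). The kinetochore gene SPC25 and the centromere chaperone gene HJURP differed by 7.80 and 7.65. Those lowest with sG5C included CCND2, the cyclin D2 gene, with 0.655 CPM with sG5C and 76.7 CPM with sCAG, a difference of -6.86. COL1A1 and HAS2, a hyaluronan synthase gene, differed by -5.37 and -5.26. Set against sNT8, FREM2 changed by 1.07 with sG5C and -7.31 with sCAG, and PBK by 0.62 and -7.60. SPC25 changed by 0.72 and -7.11, and HJURP by 0.44 and -7.24. CCND2 changed by -2.62 and 4.21, COL1A1 by -2.53 and 2.82 and HAS2 by -1.12 and 4.11. HAS2 had a mean of only 0.431 CPM with sG5C. Its call with sG5C against sNT8 was lost without sNT8 replicate B (edgeR adjusted p = 0.0595). For FREM2, PBK, SPC25, HJURP, CCND2, COL1A1 and HAS2 the change with sCAG was the larger in size. The pregnancy-specific glycoprotein genes PSG1 and PSG5, also among the lowest with sG5C, differed by -5.95 and -5.56 and went the other way. PSG1 changed by -3.77 with sG5C and 2.15 with sCAG, and PSG5 by -4.56 and 0.98. Their means with sG5C were only 0.162 and 0.217 CPM.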

How the data were processed

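Total RNA of 18 libraries was sequenced, 6 of them for this comparison, and library totals are given above. The submitters' processing notes name TopHat, Bowtie2, HTSeq and DESeq2 and the build hg38, with no versions or strand setting. The authors deposited a signal per gene and library, here counts divided by size factors per the file headers, for 58395 genes. A log2 fold change and a p-value, raw and adjusted, were deposited beside them, and by the adjusted p-value in the authors' deposited table a total of 11399 genes pass 0.05, of which 11186 were also called here and none in the other direction.

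Each column was divided by its smallest non-zero value, which gave whole reads for every value within a tolerance of 1e-06. Reads were tested with edgeR 4.0.16 in R 4.3.3 (TMM scaling, filterByExpr with a count minimum of 10, robust quasi-likelihood F test, Benjamini-Hochberg adjustment over all genes tested, threshold 0.05) on the 6 libraries. The difference between lines used 12 libraries with an interaction term, and sG5C against sCAG their 6 HeyA8 libraries. The chi-square between replicates was 3.36 to 5.20 times its degrees of freedom, above counting noise. 3′ UTRs were those of GENCODE 29, with Python 3.11.15, pandas 2.3.3 and numpy 2.4.6. Alternatives were DESeq2 1.42.0, limma 3.58.1 on log2 of the deposited value plus 1 or 0.1, other scalings and filters, a replicate block, and leaving out each library.

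Named genes were the 15 lowest and 15 highest called protein-coding genes with at least 5 CPM in the higher group and groups that did not overlap, the 5 lowest and 5 highest noncoding ones, up to 5 members of each list by size of change and 3 by p, the most abundant member of each role, and a fixed set that includes AGO2, DICER1, FAS and CASP8. For the difference between lines and the comparison with sCAG they were the 5 lowest and 5 highest called genes. Some genes covered by these rules are given only through the counts of their lists, and a few more were left out of the text and of the counts of single genes under other settings. Cell type markers are named as a check of the cells. The members and lists were chosen with earlier results of these data known, and no enrichment test was run on them.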

Additional observations from a re-analysis of the deposited data

Results flagged for a closer look

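The sG5C change differed between HeyA8 and PC3 for 8667 genes, by edgeR's test of the interaction of short RNA and cell line. The 5 highest and 5 lowest differences among protein-coding genes called in HeyA8 with a mean of at least 5 CPM in the higher group of each line are given as the log2 change in HeyA8 minus the log2 change in PC3, each over 3 libraries a group. The difference was -4.23 for GBP1, with changes of -1.01 in HeyA8 and 3.15 in PC3 taken from separate fits, as are the changes below. For IFI44L it was -4.14, for TRIM22, an interferon-induced gene, -3.63, and for FN1 -3.98. GATA2, a transcription factor gene, differed by -3.68, and its change in HeyA8 alone, -0.25, was lost without sG5C replicate A or C or sNT8 replicate A or C (adjusted p = 0.0506 to 0.0836) and with libraries scaled to totals (adjusted p = 0.181).

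Differences in the other direction were 2.89 for MERTK, 2.72 for HAS3, a hyaluronan synthase gene, 2.48 for E2F1, 2.40 for FAM111B and 2.35 for MCM10. HAS3 changed by -0.31 in HeyA8 and -3.11 in PC3, and FAM111B, which encodes a protease of replicating cells, by 1.23 and -1.24. MCM10 changed by 1.22 and -1.20. The call of HAS3 in HeyA8 was lost without sG5C replicate B or C or sNT8 replicate A or B (adjusted p = 0.0576 to 0.131) and with libraries scaled to totals (adjusted p = 0.163), and that of E2F1 without sG5C replicate B (adjusted p = 0.0709).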

How the results depend on the processing

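The number of genes called between sG5C and sNT8 was 11945, and between 10413 (count minimum of 50, 15244 genes tested) and 12294 (library totals) under the other settings, with 10909 in DESeq2 and 11733 with the replicate letter as a replicate block. Leaving out each library in turn gave 10962 to 11376 called genes, 7953 to 8337 for the difference between lines and 14228 to 14456 for sG5C against sCAG. No pairing by letter was seen. Same-lettered sNT8 and sG5C libraries had correlations of deviations of -0.034, 0.055 and 0.024, and those with differing letters -0.074 to 0.052. With 3 libraries a group, these values cannot show whether the libraries were paired by design. With the block 8828 genes differed between the lines and 14806 between sG5C and sCAG. With library totals 6399 genes were higher and 3137 lower in HeyA8 than in PC3, against 3677 and 4990. The difference of medians between genes with 3 or more matches and none was -0.37, and -0.45 with UTRs of at least 50 bases and 5 CPM, -0.45 with the hexamer followed by A and -0.29 for matches in the coding region, an alternative chosen after seeing the data, as was the grouping by GC content. The cause of these shifts was not tested. Of 5603 pairs of an alternative and a gene chosen by the naming rules 5476 kept direction and side of the threshold, 95 lost the call and 32 gained it. The depth limits genes with few reads, such as C6orf141 and the pregnancy-specific glycoprotein genes.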
